A study of Mus musculus with 32 samples.

Results

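Acyl-CoA thioesterases hydrolyse acyl-CoAs to the free acid and CoA, and most of those of the liver are encoded by genes named Acot. The 10 genes described here are Acot1, Acot2, Acot3, Acot4, Acot7, Acot8, Acot9, Acot11, Acot12 and Acot13, out of the 35523 genes measured. They were chosen with earlier results of these data known, and Acot5, Acot6 and Acot10, which carry the same name, were not among them. For each gene the deposited read estimates of all its Ensembl transcripts were summed in every library. The study asked how loss of NUDT7, a peroxisomal enzyme that hydrolyses CoA and acyl-CoAs, changes the mouse liver on diets of low and high fat content. Liver mRNA of 32 mice was sequenced, 4 in each of 8 groups. These were Nudt7-/- (KO) and wild-type (WT) females on a Western diet (WD), KO and WT females on a control diet (CD), and the same 4 groups in males. The WD supplied 41% of its energy as fat and held 0.2% cholesterol, the CD supplied 10% and held 0% cholesterol, and both were fed from 6 weeks of age until collection at 17 to 20 weeks. The KO allele lacks exons 3 and 4 of Nudt7 in every tissue. It was made with CRISPR/Cas9 in FVB zygotes, goes back to a single mosaic founder and was backcrossed to C57BL/6J, and the controls were WT littermates. The sources used here do not say whether the sequenced livers came from fed or fasted mice.

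Nothing in the labels names litters or batches, so the p-values measure the spread between these mice. The libraries held 10140048 to 15825078 counts, with a median of 13000302, and all 10 genes had enough counts to be tested in every comparison. Levels between libraries are given in CPM, counts scaled to the library size with TMM factors, and levels between genes in TPM, which corrects for transcript length. Nudt7 was lower in KO than in WT livers in all 4 combinations of sex and diet, with no overlap. By edgeR's quasi-likelihood test with Benjamini-Hochberg adjustment over all genes, it was called lower in females on the CD (adjusted p = 0.0159). Nudt7 was not called in the other combinations. In males it averaged 86.3 ± 50.4 CPM in KO and 511 ± 105 CPM in WT livers on the WD, and 141 ± 89.8 and 487 ± 165 CPM on the CD (SD, n = 4 each). In females it averaged 36.5 ± 17.8 CPM in KO and 131 ± 32.4 CPM in WT livers on the WD, and 32.6 ± 11.0 and 179 ± 46.8 CPM on the CD. The sum counts reads from the exons that remain, so it does not measure intact transcript. Summed hepatocyte markers reached 42231 to 93239 CPM in the 32 libraries. Pancreatic acinar markers, whose sum was at most 92.3 CPM in 28 libraries, reached 351 to 4719 CPM in 4 female libraries: replicates 2 and 4 of the WT females on the CD, replicate 3 of the KO females on the CD and replicate 4 of the WT females on the WD. Values without these libraries are given beside the comparisons of females. In whole liver, fewer cells of a type and less RNA per cell cannot be told apart.

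Unrelated protein folds carry the name. Acot1 to Acot6 are close relatives with an α/β-hydrolase fold, and Acot7 to Acot13 have a hotdog fold. What separates the members is mainly where they work. Acot3, Acot4 and Acot8 are peroxisomal and act on products of peroxisomal β-oxidation, with mouse Acot4 preferring succinyl-CoA and other dicarboxylyl-CoAs and Acot8 accepting a wide range of acyl-CoAs, bile acyl-CoAs included. Acot8 is inhibited by free CoA, which is also a substrate of NUDT7. Acot1, Acot7 and Acot12 are cytosolic, Acot1 and Acot7 active on long-chain acyl-CoAs and Acot12 on acetyl-CoA. Acot2, Acot9 and Acot13 are mitochondrial or associated with mitochondria. Acot11, also known as Them1, is best known from brown adipose tissue and, like Acot12, carries a lipid-binding START domain. Several of these genes are known targets of PPARα, the fatty acid-activated receptor that drives fasting and peroxisome genes in rodent liver.

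Acot1, Acot2, Acot3 and Acot4 lie side by side on the plus strand of chromosome 12 (GRCm38), with Acot5 and Acot6 in the same 123 kb. Acot2 spans chr12:83987861-83993873, Acot1 chr12:84009490-84018371, Acot4 chr12:84038379-84048601 and Acot3 chr12:84052144-84060402, only 3.54 kb after Acot4. The other members are scattered: Acot7 at chr4:152178134-152271855 (plus strand), Acot11 at chr4:106744555-106804998 (minus), Acot8 at chr2:164792765-164804882 (minus), Acot9 at chrX:155262443-155297654 (plus), Acot12 at chr13:91741512-91786148 (plus) and Acot13 at chr13:24817948-24831540 (minus). The cluster arose by duplication and its transcripts still share long stretches, which bears on how surely a read can be given to a gene. Of the 31-base words of the main transcript, 39.2% in Acot1, 37.8% in Acot2, 47.8% in Acot3 and 19.3% in Acot4 occurred in transcripts of other genes. Acot1 and Acot2 shared 29.2% of the words of Acot1. Their longest identical run lies in the coding sequence of both and is shown because no read of 50 bases within it can tell the pair apart.
Acot1 and Acot2, 273 bases shared: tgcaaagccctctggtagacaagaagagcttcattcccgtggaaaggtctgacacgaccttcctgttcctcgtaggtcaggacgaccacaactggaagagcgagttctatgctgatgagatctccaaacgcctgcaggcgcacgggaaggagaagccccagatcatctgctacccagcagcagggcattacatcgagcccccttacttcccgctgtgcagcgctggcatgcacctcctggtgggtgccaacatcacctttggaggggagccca

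The longest run that Acot3 and Acot4 have in common is 111 bases long. Acot4 shared 12.2% of its words with a transcript of the opposite strand, 4732463B04Rik, which was not among the genes measured. Acot3 shared 15.5% with the same transcript, 16.3% with Acot5 and 21.9% with Gm49366, a gene model that spans parts of Acot4 and Acot3 and had 0 counts in all 32 libraries. Acot5 had 8 counts in all libraries together and Acot6 had 685. Outside the cluster, Acot9 shared 36.9% of its words with other genes, chiefly Acot10, which had 1 count in all. Acot11 and Acot8 overlap genes of the opposite strand, Fam151a with 9 counts and Snx21 with 3669 counts, and shared 20.9% and 19.1% of their words. Acot12 shared 3.93% and Acot7 and Acot13 shared 0%. The use of strand in the counting is not given in the sources used here, so reads of a gene and of its antisense partner cannot be told apart.

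Peroxisomal matrix proteins usually carry their targeting signal in the last residues, so the ends of the coding sequences are shown for the peroxisomal members and, beside them, for the cytosolic Acot1 and mitochondrial Acot2 of the same cluster. The last 42 coding bases are given from the main transcript in GRCm38, with the last 3 sense codons and the stop codon in capitals.
Acot3: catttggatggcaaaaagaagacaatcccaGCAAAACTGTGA
Acot4: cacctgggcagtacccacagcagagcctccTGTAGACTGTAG
Acot8: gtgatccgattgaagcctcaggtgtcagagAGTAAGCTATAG
Acot1: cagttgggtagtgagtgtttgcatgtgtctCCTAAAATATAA
Acot2: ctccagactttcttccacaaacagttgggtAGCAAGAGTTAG
The capitals of Acot3 and Acot4 end in the same sense codon, CTG, and those of Acot8 in CTA. The coding sequences of Acot3 and Acot4 are equally long at 1266 bases, against 963 in Acot8, 1260 in Acot1 and 1362 in Acot2.

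A RefSeq promoter (GRCm38.p6) was available for 9 of the 10 genes, with 11 start sites in all. The 250 bases before each start and the 50 after it were searched on both strands for the PPAR response element. This is AGGTCA repeated after 1 base of any kind. With at most 2 mismatches, 3.86% of 32851 promoters held it. Acot4 and Acot12 held a match, on the reverse strand in both. The match of Acot12 had 1 mismatch, a share of 0.554% of promoters, and began 110 bases before the start, and that of Acot4 had 2 and ended next to the start. The 250 bases before the start are shown for the promoters with a match and for that of Acot3, with the match in capitals.
Acot4 (chr12:84038129-84038378, plus strand): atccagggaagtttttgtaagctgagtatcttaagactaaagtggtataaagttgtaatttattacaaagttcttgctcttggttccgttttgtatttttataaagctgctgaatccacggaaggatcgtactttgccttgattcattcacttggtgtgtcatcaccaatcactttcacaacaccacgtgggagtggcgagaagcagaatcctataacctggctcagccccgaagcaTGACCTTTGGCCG
Acot12 (chr13:91741271-91741520, plus strand): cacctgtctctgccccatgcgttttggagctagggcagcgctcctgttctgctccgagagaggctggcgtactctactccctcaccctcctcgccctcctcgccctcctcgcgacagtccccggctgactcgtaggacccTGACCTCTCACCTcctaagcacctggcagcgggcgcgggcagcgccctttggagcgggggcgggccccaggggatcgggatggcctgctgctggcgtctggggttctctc
Acot3 (chr12:84051894-84052143, plus strand): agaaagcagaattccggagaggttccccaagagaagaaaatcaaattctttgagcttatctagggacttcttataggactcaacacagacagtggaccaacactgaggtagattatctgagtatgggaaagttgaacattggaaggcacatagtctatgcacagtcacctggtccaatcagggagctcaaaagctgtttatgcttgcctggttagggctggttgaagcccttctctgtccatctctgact
The STAT5-type word TTCNNNGAA was in none of the 11 promoters (0 of 11) and in 8.3% of all. These matches describe letters in a short window and not binding.

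Per length, Acot13 had the highest level of the 10 genes in the liver, at 98.4 ± 20.2 TPM over all 32 libraries, and Acot9 the lowest at 3.82 TPM. In females the order was Acot13 (114 ± 13.2 TPM, SD, n = 16), Acot3 (77.6 ± 39.0), Acot4 (65.0 ± 14.7), Acot12 (64.2 ± 9.02), Acot1 (39.0 ± 30.4), Acot8 (17.1 ± 2.99), Acot7 (15.7 ± 2.53), Acot2 (8.93 ± 3.59), Acot11 (5.28 ± 2.43) and Acot9 (4.12 ± 0.835). Acot3, Acot4 and Acot12 overlapped widely, so their order within females is not fixed by these data. Over both diets, males had Acot13 (82.5 ± 11.7 TPM), Acot12 (53.2 ± 12.2), Acot1 (21.4 ± 18.9), Acot4 (17.6 ± 8.96), Acot8 (15.9 ± 3.50), Acot7 (12.4 ± 1.47), Acot11 (4.69 ± 2.21), Acot2 (3.78 ± 3.04), Acot9 (3.52 ± 1.42) and, last, Acot3 (3.14 ± 4.01). The levels of Acot1, Acot4, Acot8 and Acot7 overlapped in males, as did those of the last 4 genes. These orders pool the diets and were not the same on each. In males Acot1 averaged 35.1 ± 17.8 TPM on the WD and 7.68 ± 4.54 TPM on the CD (SD, n = 8 each), where it lay below Acot4 (16.2), Acot8 (13.5) and Acot7 (13.4). Acot3, the peroxisomal long- and medium-chain enzyme, was among the lowest members in males on both diets, at 4.15 ± 5.41 TPM on the WD, where Acot9 had 3.75 TPM, and 2.12 ± 1.70 TPM on the CD, where Acot2 had 1.89 TPM. In females it averaged 94.7 TPM on the WD and 60.5 TPM on the CD, near Acot4 (70.2 and 59.7 TPM) and Acot12 (68.8 and 59.6 TPM). Summed over the 10 genes, the family reached 411 ± 80.3 TPM in females (322 to 540) and 218 ± 48.0 TPM in males (166 to 350). Acot3 and Acot4 together made up 33.8% ± 6.73 of that sum in females and 9.12% ± 3.59 in males. The TPM of a gene sums all its transcripts, so short transcripts with few counts can weigh much in it. The main transcript of Acot4, 6203 bases long, held 98.1% of its counts. The mean effective length behind the TPM of Acot4 was 3725 bases. For Acot1 the same values were 2272 bases, 65.5% and 927 bases. The orders and shares thus depend on how counts were split among transcripts.

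**Figure D1:**
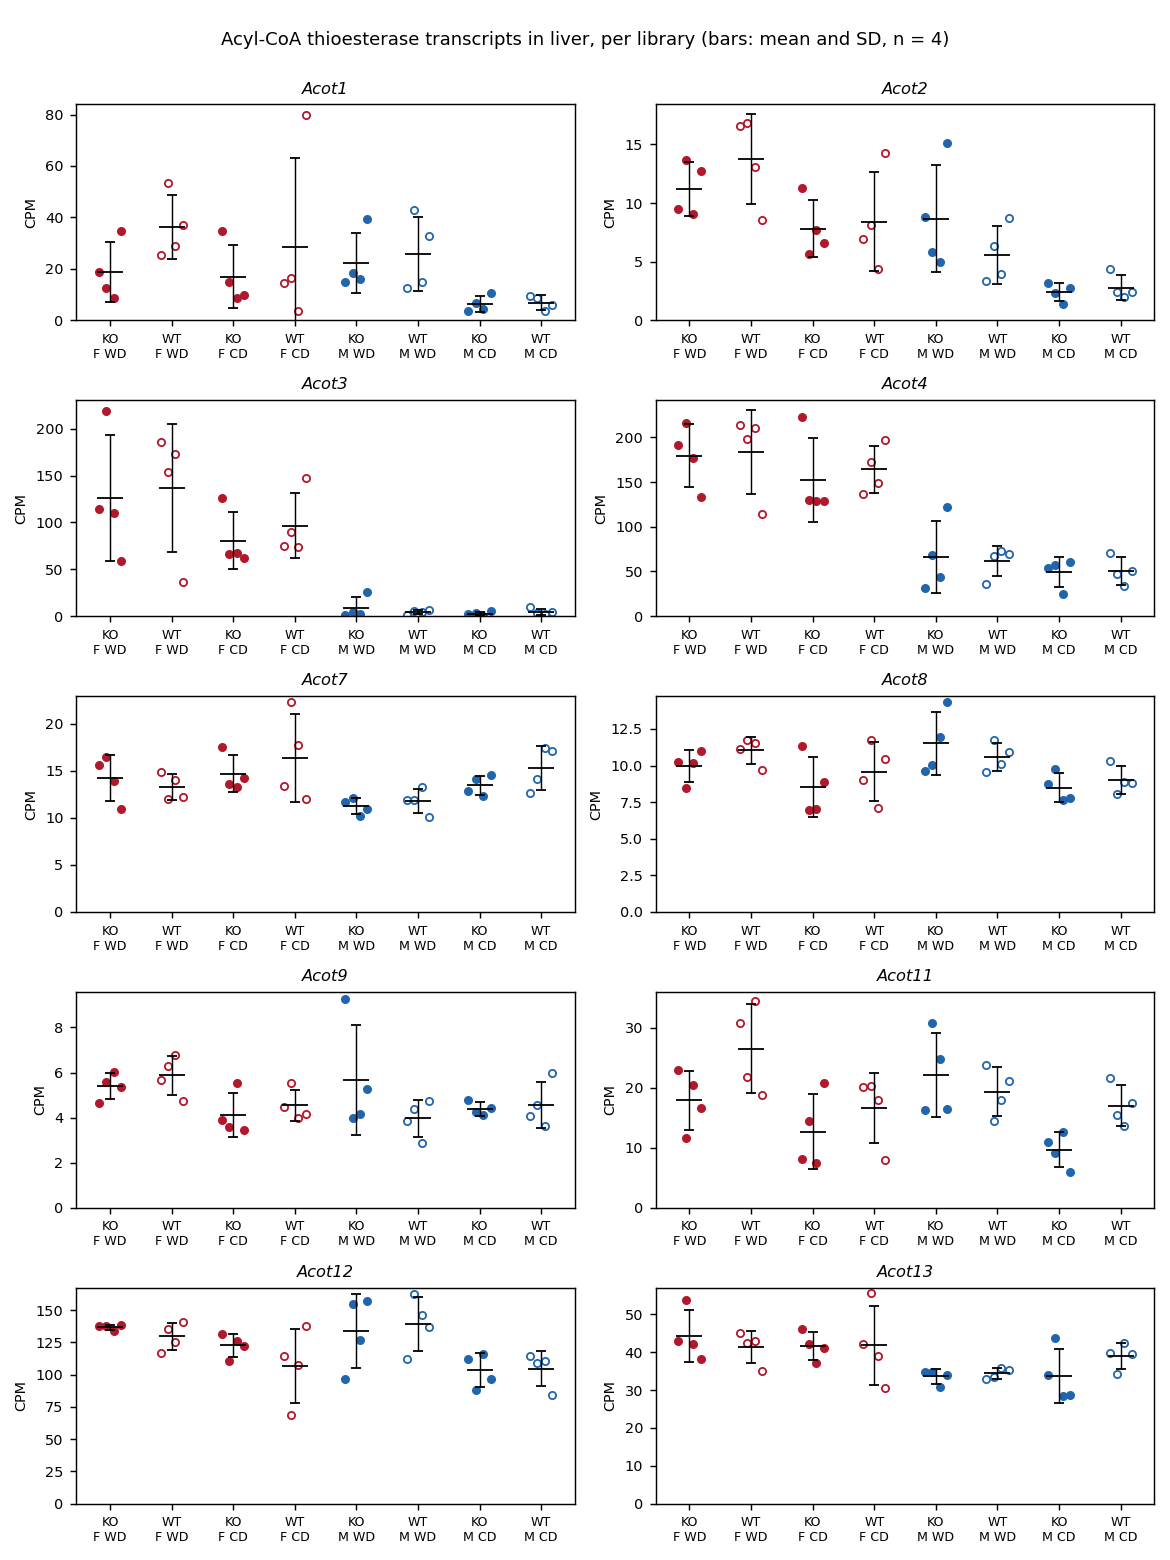
CPM of each gene (vertical axis, from 0, own scale per panel) in the 8 groups of 4 livers, females red and males blue, KO filled and WT open, with mean and SD. Acot3 is higher in all 16 females than in all 16 males, Acot4 overlaps only between a male at 122 CPM and a female at 114 CPM, and Acot1 and Acot2 lie low in the males on the CD.

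The comparison of females with males asked which members differ by sex within a genotype and diet. The peroxisomal pair of the chromosome 12 cluster did, passing the test in 3 of 4 comparisons and lying higher in females without overlap in all 4. Acot3 ranged from 36.7 to 219 CPM in the 16 female livers, with a median of 100.3, and from 0.165 to 25.7 CPM in the 16 male livers, with a median of 3.57. No male liver reached the lowest female liver.

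On the CD, Acot3 had 127, 66.4, 67.5 and 62.3 CPM in KO females, against 2.05, 2.90, 0.165 and 5.05 CPM in KO males. WT females on the CD had 75.0, 90.0, 73.8 and 148 CPM of Acot3, against 9.27, 3.08, 1.87 and 4.65 CPM in WT males. All females were thus well above all males on this diet, and Acot3 was higher in females by a log2 fold change of 5.04 in KO (SE 0.62, adjusted p = 0.0050) and 4.37 in WT livers (SE 0.51, adjusted p = 0.0044), by edgeR's quasi-likelihood test with Benjamini-Hochberg adjustment over all genes. On the WD, Acot3 had 115, 219, 111 and 58.6 CPM in KO females, against 1.28, 4.07, 1.86 and 25.7 CPM in KO males. WT females on the WD had 186, 154, 173 and 36.7 CPM, against 0.911, 5.78, 4.52 and 6.04 CPM in WT males. The difference passed the test in WT livers (log2 fold change 4.97, SE 0.71, adjusted p = 0.0081). In KO livers on the WD the groups were separate, but the difference of 3.95 did not pass (SE 1.00, adjusted p = 0.0615). Without replicate 4 of the KO males the difference was 5.70 (adjusted p = 0.0084).

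Acot4, the dicarboxylyl-CoA thioesterase, followed the same pattern from a higher male level. It had 192, 216, 176 and 133 CPM in KO females on the WD, against 31.6, 68.1, 43.7 and 122 CPM in KO males, and 213, 198, 211 and 114 CPM in WT females, against 36.1, 67.5, 73.3 and 69.7 CPM in WT males. On the CD, KO females had 223, 130.2, 128 and 129 CPM, against 54.1, 57.5, 24.5 and 60.5 CPM in KO males. WT females on the CD had 137, 173, 149 and 197 CPM of Acot4, against 70.5, 46.5, 33.4 and 50.9 CPM in WT males. The sexes did not overlap in any of these 4 pairs. Acot4 was higher in females in KO livers on the CD (log2 fold change 1.64, SE 0.31, adjusted p = 0.0169), in WT livers on the WD (1.59, SE 0.27, adjusted p = 0.0096) and in WT livers on the CD (1.71, SE 0.21, adjusted p = 0.0012). In KO livers on the WD the difference was 1.43 (SE 0.42, adjusted p = 0.0838), and without replicate 4 of the KO males it was 1.90 (adjusted p = 0.0068). With genes of low counts kept in, that of KO livers on the CD no longer passed (adjusted p = 0.0596).

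Averaged over genotype and diet in a model of all 32 libraries, Acot3 was 23.8-fold and Acot4 3.01-fold higher in females (log2 fold changes 4.58, SE 0.40, and 1.59, SE 0.17, adjusted p = 1.74e-09 and 6.69e-08). By p-value they ranked 168 and 260 of 13539 genes. Without the libraries with acinar transcripts these log2 fold changes were 4.58 and 1.60. Within the CD, where 3 of the 8 female livers were then left out, Acot3 was at 5.12 in KO (adjusted p = 0.0131) and 4.00 in WT livers (adjusted p = 0.0362), and Acot4 at 1.71 (adjusted p = 0.0343) and 1.52 (adjusted p = 0.0347). Acot8, the other peroxisomal member, had a mean difference between the sexes of −0.01 (SE 0.08, adjusted p = 0.908), and its 16 female livers held 6.98 to 11.8 CPM and its 16 male livers 7.66 to 14.3 CPM.

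Among the other members, Acot2, the mitochondrial matrix enzyme for long-chain acyl-CoAs, was also higher in females. On the CD it had 11.3, 5.68, 7.71 and 6.62 CPM in KO females, against 3.19, 2.32, 1.40 and 2.73 CPM in KO males, a log2 fold change of 1.69 (SE 0.28, adjusted p = 0.0037). WT females on the CD had 6.94, 8.12, 4.37 and 14.3 CPM, against 4.33, 2.42, 1.96 and 2.37 CPM in WT males, separate groups whose difference of 1.62 missed the threshold (SE 0.38, adjusted p = 0.0616). Without the libraries with acinar transcripts, Acot2 was at 1.70 in KO (adjusted p = 0.0090) and 1.04 in WT livers on the CD (adjusted p = 0.138). On the WD, Acot2 was higher in WT females by 1.305 (SE 0.32, adjusted p = 0.0357), with overlapping groups and a call that was lost without any 1 of 6 of the 8 libraries, all but replicate 4 of either sex (adjusted p 0.0734 to 0.0936). In KO livers on the WD its difference was 0.38 (SE 0.34, adjusted p = 0.534). Acot13, also called Them2, was higher in KO females on the WD, at 42.9, 53.9, 42.02 and 38.2 CPM against 34.7, 34.8, 30.8 and 33.9 CPM in KO males (log2 fold change 0.39, SE 0.11, adjusted p = 0.0424). These groups were separate, but leaving out any library other than replicate 4 of the KO females ended the call (adjusted p 0.0544 to 0.115). Its means over all groups, 42.2 ± 6.20 CPM in females and 35.2 ± 4.36 CPM in males (SD, n = 16 each), differed by 0.27 on the log2 scale (SE 0.07, adjusted p = 0.0037).

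In the pairwise comparisons 3 of 10 members were called in KO livers on the CD, 1 in KO livers on the WD, 2 in WT livers on the CD and 3 in WT livers on the WD, all higher in females. Of all genes tested, 6.66%, 9.66%, 2.24% and 9.64% were called in these comparisons in either direction. In each of the 4, the sexes did not overlap for 3 members, against 15%, 17.2%, 10.1% and 17.4% of all genes. The mean over groups called 5 of 10 members, all higher in females (Acot1, Acot2, Acot3, Acot4 and Acot13), where 31.6% of genes were called and 15.9% were higher. The median of the 10 log2 differences was 0.22, against 0.02 over all genes. Acot1 was the least firm of the 5 (0.94, SE 0.34, adjusted p = 0.0357). It had 79.7 CPM in replicate 4 of the WT females on the CD, against 3.46 to 16.5 CPM in the other 3 livers of that group, and without that library the mean difference was 0.60 (adjusted p = 0.105). The call of Acot1 was also lost without each of 11 other libraries, at 0.78 to 0.92 (adjusted p 0.0508 to 0.0737). These were replicate 4 of the KO females and 2 of the WT females on the WD, 1 of the KO females on the CD, 1, 2 and 3 of the KO males and 1 and 3 of the WT males on the WD, and 1 and 3 of the KO males and 3 of the WT males on the CD. It was lost as well with genes of low counts kept in (0.94, adjusted p = 0.0611) and without the 4 libraries with acinar transcripts, at 0.57 (adjusted p = 0.166). Replicate 4 of the WT females on the WD, a library with acinar transcripts, was the lowest of its group in Acot2, Acot3 and Acot4. Without it, Acot9 and Acot13 were called beside Acot2, Acot3 and Acot4 in WT livers on the WD (log2 differences 0.66 and 0.34, adjusted p = 0.0368 and 0.0187).

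**Figure D2:**
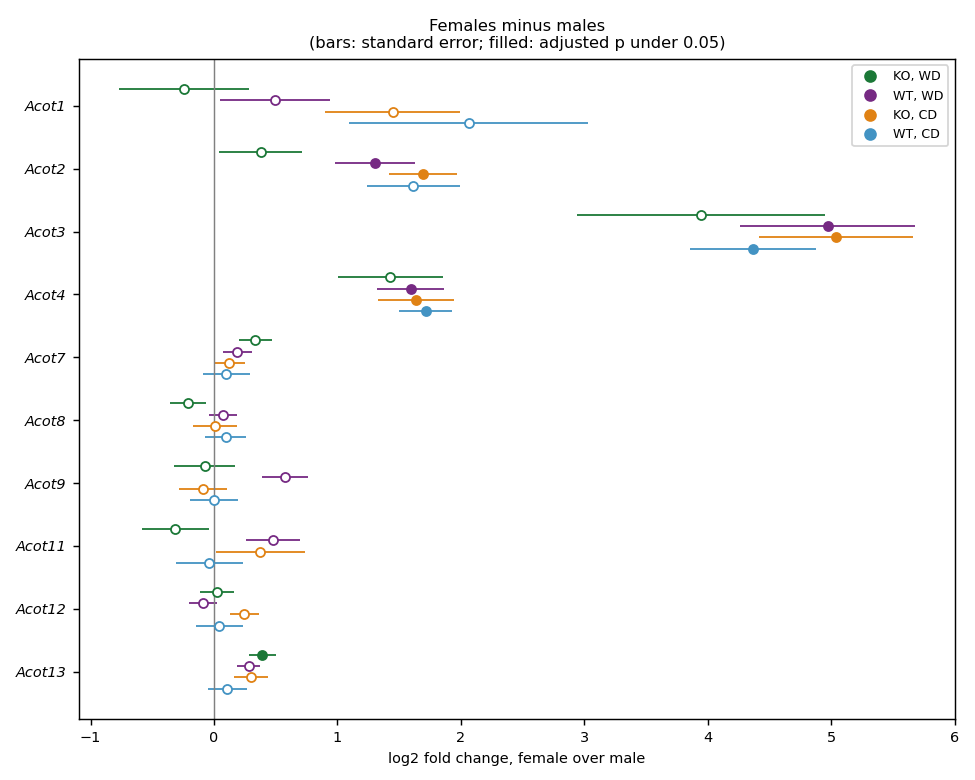
Log2 fold change of females over males (horizontal axis) with its standard error for the 10 genes in each genotype and diet, filled where the adjusted p is under 0.05. Acot3 lies at 3.95 to 5.04 and Acot4 at 1.43 to 1.71, while Acot8 lies at −0.21 to 0.09 and Acot12 at −0.09 to 0.25.

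The comparison of the WD with the CD asked how the members respond to a high-fat, cholesterol-containing diet. In males, the cytosolic and mitochondrial long-chain enzymes of the cluster were higher on the WD. Acot1 had 14.8, 18.3, 15.999 and 39.5 CPM in KO males on the WD, against 3.73, 6.80, 4.20 and 10.4 CPM on the CD. WT males had 12.4, 42.8, 15.0 and 32.8 CPM on the WD, against 9.53, 8.57, 3.47 and 5.89 CPM on the CD. Every male on the WD was above every male on the CD, in both genotypes. Within a genotype the difference did not pass the test, at 1.86 in KO (SE 0.44, adjusted p = 0.0775) and 1.92 in WT males (SE 0.51, adjusted p = 0.0545). The mean of both, from the model of all libraries, did pass: Acot1 rose by 1.87 on the log2 scale in males (SE 0.50, adjusted p = 0.0114).

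Acot2 had 8.77, 5.83, 4.95 and 15.1 CPM in KO males on the WD, against 3.19, 2.32, 1.40 and 2.73 CPM on the CD, and 3.30, 6.33, 3.94 and 8.69 CPM in WT males on the WD, against 4.33, 2.42, 1.96 and 2.37 CPM on the CD. It rose in KO males, where the groups were separate (log2 fold change 1.86, SE 0.38, adjusted p = 0.0392). In WT males 2 livers on the WD lay below the highest liver on the CD, and the difference was 1.03 (SE 0.34, adjusted p = 0.0714). The mean rise in males was 1.43 (SE 0.28, adjusted p = 0.0010). With counts of Acot1 and Acot2 added into a single feature, because of their shared sequence, the mean rise in males was 1.77 (adjusted p = 0.0043), and the differences within KO and WT males were 1.86 (adjusted p = 0.0581) and 1.72 (adjusted p = 0.0603).

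Acot11 had 16.3, 30.7, 24.8 and 16.5 CPM in KO males on the WD, against 11.0, 9.04, 12.7 and 5.89 CPM on the CD. These groups were separate, and Acot11 rose by 1.19 on the log2 scale (SE 0.26, adjusted p = 0.0496). WT males had 23.8, 14.4, 17.97 and 21.1 CPM on the WD, against 21.6, 15.5, 13.6 and 17.4 CPM on the CD, groups that overlapped widely (0.19, SE 0.17, adjusted p = 0.503). The difference between these responses, 1.01, did not pass (SE 0.46, adjusted p = 0.386). Acot12, which hydrolyses acetyl-CoA, had 112, 162, 146 and 137 CPM in WT males on the WD, against 114, 109, 110.4 and 84.5 CPM on the CD, and rose by 0.43 (SE 0.13, adjusted p = 0.0449). KO males had 96.7, 155, 127 and 158 CPM on the WD, against 112, 88.4, 116 and 96.7 CPM on the CD (0.39, SE 0.16, adjusted p = 0.227). In both genotypes 1 liver on the WD lay within the range of the CD, and the mean rise of Acot12 over both was 0.40 (SE 0.11, adjusted p = 0.0126).

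The mean over male genotypes also called a rise of Acot11 (0.68, SE 0.23, adjusted p = 0.0432) and of the peroxisomal Acot8 (0.33, SE 0.11, adjusted p = 0.0360), which averaged 11.0 ± 1.61 CPM on the WD and 8.76 ± 0.938 CPM on the CD (SD, n = 8 each). Acot7 was the only member to fall, at 11.5 ± 1.05 CPM on the WD and 14.4 ± 1.94 CPM on the CD (−0.32, SE 0.11, adjusted p = 0.0445). Its 4 KO males on the WD (10.2 to 12.1 CPM) all lay below the 4 on the CD (12.3 to 14.5 CPM). Acot3, Acot4, Acot9 and Acot13 had mean differences of −0.09 to 0.82 that did not pass (adjusted p 0.327 to 0.762). Acot3 had the widest error (SE 0.60), and replicate 4 of the KO males on the WD had 25.7 CPM of it, against 1.28 to 4.07 CPM in the other 3.

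In all, 2 of 10 members were called in KO males and 1 in WT males, all higher on the WD, where 2.6% and 13.7% of all genes were called in either direction. The diets did not overlap for 4 members in KO males (3 higher, 1 lower) and 1 in WT males, against 11% and 20% of all genes. The mean over both called 5 members higher and 1 lower, where 16.3% of genes were called, 7.19% higher and 9.08% lower. The median log2 difference of the 10 genes in males was 0.38, against 0.00 over all genes. The calls of Acot1, Acot2 and Acot12 in this mean held in all 32 fits that left out a library. Those of Acot7, Acot8 and Acot11 were lost in 17, 9 and 11 of the 32, at adjusted p up to 0.0979, 0.0906 and 0.0984. The calls within a genotype were less firm. Acot12 in WT males was called only without replicate 1 on the WD (0.53, adjusted p = 0.0206) and not without any other library (0.34 to 0.48, adjusted p 0.0573 to 0.119). Acot2 in KO males was called only without replicates 2 or 3 on the WD (2.00 and 2.05), and Acot11 only without replicate 1 on the WD (1.31). Without any other library Acot2 was at 1.45 to 2.03 (adjusted p 0.0540 to 0.111) and Acot11 at 1.00 to 1.34 (adjusted p 0.0607 to 0.144). Without replicate 1 of the WT males on the WD, Acot1 and Acot2 were called there too (2.15 and 1.21, adjusted p = 0.0361 and 0.0366), and Acot2 also without replicate 1 on the CD (1.33, adjusted p = 0.0354).

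Summed markers of hepatocytes and of adipocytes shifted with the diet in males. Those of macrophages, stellate cells, endothelium and cholangiocytes overlapped between the diets in both genotypes. Summed hepatocyte markers were 42231 to 63944 CPM in KO and 55196 to 61746 CPM in WT males on the WD, and 63824 to 90004 CPM in KO and 65086 to 79595 CPM in WT males on the CD. The diets thus did not overlap in WT males and overlapped narrowly in KO males. Alb made up most of this sum, and Alb, Ttr, Cps1 and Tat averaged lower on the WD in both genotypes. Hnf4a averaged 520 CPM in KO and 544 CPM in WT males on the WD, and 556 and 522 CPM on the CD. Apoa1 averaged 4138 CPM in KO and 4974 CPM in WT males on the WD, and 4437 and 4837 CPM on the CD. The sum of adipocyte markers was 37.6 to 104 CPM in KO and 16.05 to 68.6 CPM in WT males on the WD, and 6.31 to 8.97 CPM in KO and 9.53 to 16.5 CPM in WT males on the CD. For this sum the diets were separate in KO males and overlapped narrowly in WT males. Of the 6 adipocyte markers, Cfd (18.7 to 95.7 CPM in KO and 7.40 to 26.3 CPM in WT males on the WD, at most 1.51 CPM on the CD) and Fabp4 made up most of the sum. Lep and Retn were at 0 in all 4 KO males on the WD. In the WT males on the WD, Adipoq, Plin1, Lep and Retn were at 0 in 3 livers, while replicate 4 had 3.30 CPM of Adipoq. Without that replicate Acot1 was at 1.79 (adjusted p = 0.115) and Acot12 at 0.44 (adjusted p = 0.0767) in WT males. The part of the hepatocyte and adipocyte markers in the diet differences was otherwise not tested.

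In females no member was called, by edgeR or by DESeq2 with length offsets, in either genotype (0 of 10 in KO and 0 of 10 in WT females, where edgeR called 0.125% and 0.0785% of all genes). An unadjusted p under 0.05 was reached by 1 member in KO and 0 in WT females with edgeR, and by 1 and 2 with DESeq2. The diets did not overlap for 1 member in KO females, Acot12, with 138, 138, 134 and 138 CPM on the WD against 132, 111, 126 and 123 CPM on the CD, and for 0 members in WT females, against 5.83% and 5.02% of all genes. The mean over both genotypes called 0 of 10 members as well, with 3 at an unadjusted p under 0.05, where 2.56% of genes were called. These were Acot2 (0.61, SE 0.25, adjusted p = 0.204), Acot9 (0.38, SE 0.15, adjusted p = 0.185) and Acot11 (0.59, SE 0.23, adjusted p = 0.175). Acot1 had 18.8, 12.5, 8.59 and 34.9 CPM in KO females on the WD, against 34.6, 15.0, 8.44 and 9.85 CPM on the CD, and 25.2, 53.5, 29.0 and 37.0 CPM in WT females on the WD, against 14.4, 16.5, 3.46 and 79.7 CPM on the CD. Those groups overlapped in both genotypes, and the mean difference of Acot1 in females was 0.24 (SE 0.46, adjusted p = 0.849). Replicate 4 of the KO females on the WD, the highest of its group in Acot1, also had the most adipocyte and brown adipocyte markers. Their sums were 59.4 and 34.1 CPM, against 6.05 to 7.97 CPM and 14.3 to 16.2 CPM in the others of that group. The part of these markers was not tested. Summed hepatocyte markers were 57748 to 78056 CPM in KO and 63156 to 71579 CPM in WT females on the WD. On the CD they were 73621 to 93059 CPM in KO and 73577 to 93239 CPM in WT females. The diets were separate in WT and overlapped in KO females. Alb made up most of this sum, and of its genes only Apoa1 averaged higher on the WD. Apoa1 averaged 4154 CPM in KO and 3631 CPM in WT females on the WD, and 3847 and 3230 CPM on the CD.

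Without the libraries with acinar transcripts, 3 of the 8 among WT females, Acot2 and Acot3 were called higher on the WD in WT females (1.46, adjusted p = 0.0381, and 1.20, adjusted p = 0.0068), while Acot1 was at 2.02 (adjusted p = 0.450). That fit rests on 3 livers on the WD and 2 on the CD. Acinar markers still summed to 47.8 and 32.3 CPM in the 2 on the CD, against 0.144 to 0.612 CPM in the 3 on the WD. In KO females 0 members were called without these libraries, and the mean over both genotypes called 0, with Acot2 at 0.99 (adjusted p = 0.0571). The difference of the diet response between females and males was tested directly and called 0 of 10 members by edgeR and 0 by DESeq2, with 2 at an unadjusted p under 0.05 in each (0.244% of genes were called by edgeR). The 2 were Acot1 (−1.63, SE 0.67, adjusted p = 0.342) and Acot2 (−0.81, SE 0.38, adjusted p = 0.399). The tests thus did not show a diet response that differed between the sexes for any member, and a p that misses the threshold does not show that the responses were alike.

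**Figure D3:**
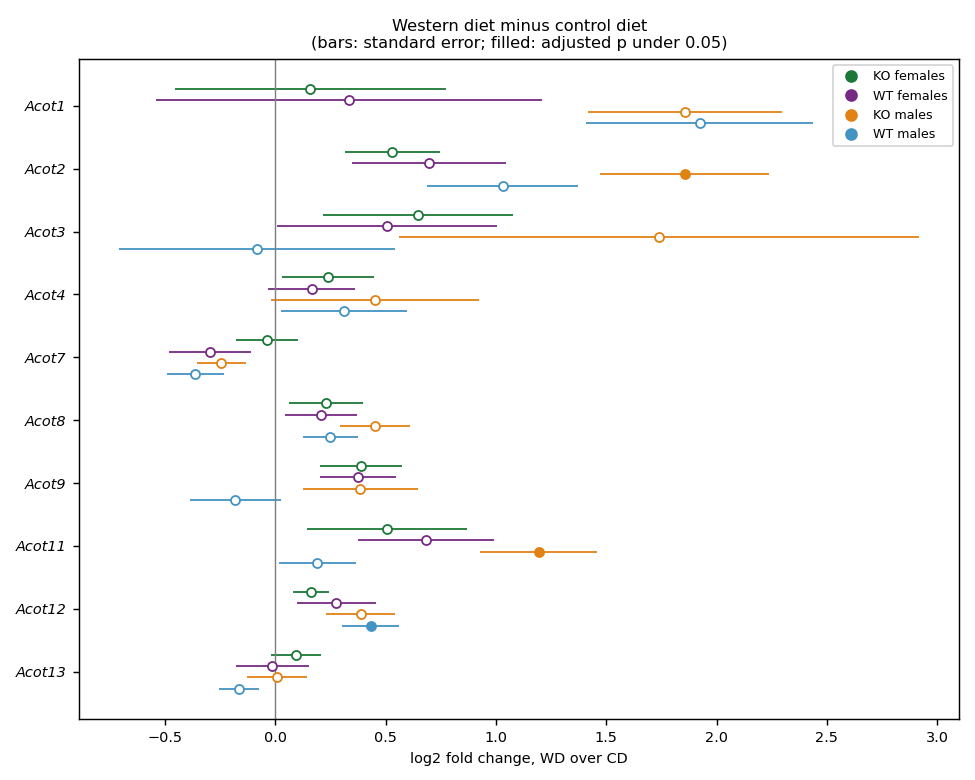
Log2 fold change of the WD over the CD (horizontal axis) with its standard error for the 10 genes in each sex and genotype, filled where the adjusted p is under 0.05. Acot1 stands at 1.86 and 1.92 in KO and WT males and at 0.16 and 0.33 in KO and WT females, with wide errors in females.

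KO livers were then set against WT livers of the same sex and diet, since the thioesterases release the CoA that NUDT7 hydrolyses. No member was called in any of the 4 combinations of sex and diet, by edgeR or by DESeq2 with length offsets. This was 0 of 10 in females on the WD, females on the CD, males on the WD and males on the CD, where edgeR called 0.0156%, 0.0314%, 0.0162% and 0.00814% of all genes. Nudt7 itself was called by edgeR only in females on the CD, so these tests could miss large changes. Over the 4 comparisons 1 member reached an unadjusted p under 0.05 by edgeR, in males on the CD. By DESeq2 it was 1 member each in females on the WD, females on the CD and males on the CD, and 0 in males on the WD. The mean over the 4 combinations called 0 of 10 members with either tool, where edgeR called 0.0886% of genes, and 1 had an unadjusted p under 0.05.

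That member was Acot11. In males on the CD it had 11.0, 9.04, 12.7 and 5.89 CPM in KO livers, against 21.6, 15.5, 13.6 and 17.4 CPM in WT livers. All KO livers were below all WT livers, with a log2 difference of −0.79 (SE 0.22, adjusted p = 0.495). Over the 10 genes and 4 comparisons this was the only case without overlap, 1 of 10 members in males on the CD, against 4.83% of all genes. There were 0 of 10 in males on the WD, females on the CD and females on the WD, against 5.07%, 4.41% and 4.34% of all genes. In females on the WD it had 22.9, 11.5, 20.5 and 16.6 CPM in KO livers, against 30.8, 21.8, 34.5 and 18.8 CPM in WT livers (−0.57, SE 0.26, adjusted p = 0.665). In females on the CD it had 8.10, 14.4, 7.47 and 20.7 CPM in KO livers, against 20.0, 20.3, 17.9 and 7.95 CPM in WT livers (−0.39, SE 0.40, adjusted p = 0.892). In males on the WD the difference was 0.21 (SE 0.23, adjusted p = 0.773), and over all 4 it was −0.39 (SE 0.16, adjusted p = 0.476). Without the libraries with acinar transcripts 0 of 10 members were called in females on either diet or in the mean, and Acot11 was at −0.70 in females on the WD (adjusted p = 0.409), −0.40 in females on the CD (adjusted p = 0.911) and −0.42 in the mean (adjusted p = 0.385). Acot1 in females on the CD, at −0.77 with all libraries (adjusted p = 0.923), was at 1.15 without them (adjusted p = 0.909).

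Acot8, whose enzyme free CoA inhibits, had 10.3, 8.48, 10.2 and 11.0 CPM in KO females on the WD, against 11.2, 11.7, 11.6 and 9.72 CPM in WT females, and 9.65, 10.1, 12.0 and 14.3 CPM in KO males on the WD, against 9.56, 11.7, 10.1 and 11.0 CPM in WT males. On the CD it had 11.4, 6.98, 7.05 and 8.85 CPM in KO females, against 8.99, 11.8, 7.08 and 10.4 CPM in WT females, and 8.75, 9.79, 7.66 and 7.78 CPM in KO males, against 10.3, 8.06, 8.89 and 8.83 CPM in WT males. KO and WT overlapped in each pair, and the mean difference was −0.07 (SE 0.08, adjusted p = 0.818). Mean differences of the other members ran from −0.53 in Acot1 (SE 0.34, adjusted p = 0.658) to 0.05 in Acot9 (SE 0.11, adjusted p = 0.915). The standard error of the mean difference was 0.07 to 0.16 in Acot7, Acot8, Acot9, Acot11, Acot12 and Acot13, and 0.17 to 0.37 in Acot1, Acot2, Acot3 and Acot4. It gives the precision of a value and not the smallest change that could be called. Acot11, at −0.39 with an error of 0.16, did not pass (adjusted p = 0.476). The diet response of KO males minus that of WT males was called for 0 of 10 members by edgeR and 0 by DESeq2, with 1 at an unadjusted p under 0.05 in each, where edgeR called 0.0591% of genes.

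**Figure D4:**
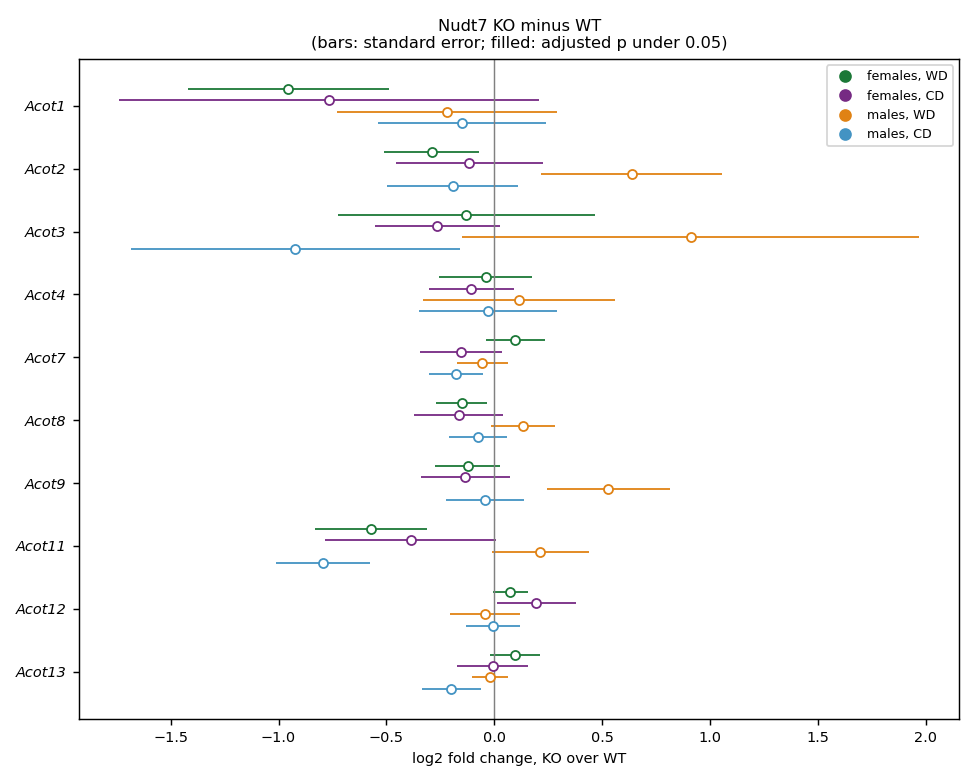
Log2 fold change of KO over WT (horizontal axis) with its standard error for the 10 genes in each sex and diet, filled where the adjusted p is under 0.05. No point is filled, and Acot11 lies at −0.79 in males on the CD and at 0.21 in males on the WD.

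Members also varied between mice of the same group, and part of this variation was shared. Over the 32 libraries the log2 CPM of Acot3 and Acot4 had a Pearson r of 0.98, and 0.96 after each group's mean was removed. Both genes share words with 4732463B04Rik, which was not measured, and the part of shared sequence in this r was not tested. The lowest Acot3 liver, replicate 3 of the KO males on the CD (0.165 CPM, 2 counts), also had the lowest Acot4 (24.5 CPM), and replicate 4 of the KO males on the WD had the highest of both genes among males (25.7 and 122 CPM). Acot1 and Acot2, which share the sequence printed above, had r = 0.78, and 0.69 within groups. Acot2 also varied with Acot3 (0.79, and 0.72 within groups) and Acot4 (0.80, and 0.67 within groups). Acot11 varied against Acot1 within groups (−0.46). These are descriptions of libraries that share depth and normalization and are given without a test.

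**Figure D5:**
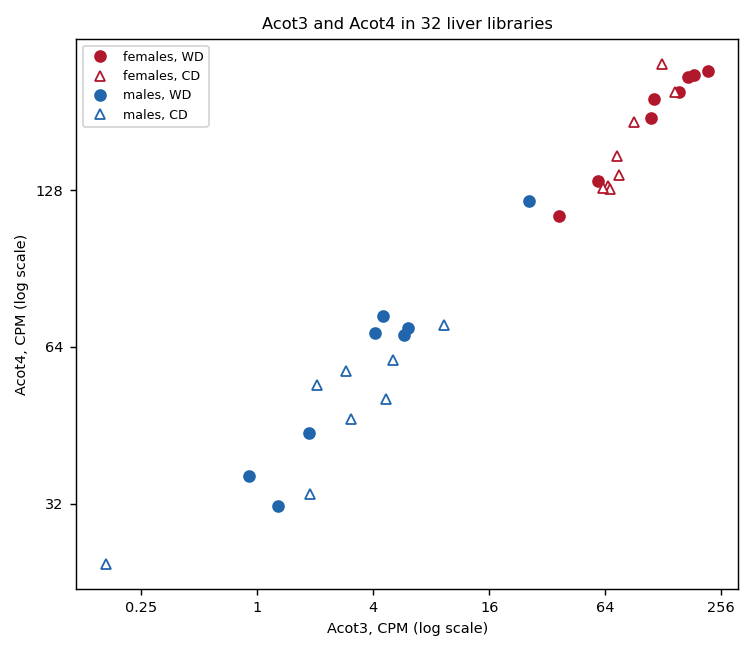
CPM of Acot4 (vertical, log scale) against Acot3 (horizontal, log scale) in the 32 livers, females red and males blue, WD filled and CD open. The points form a single band from 0.165 and 24.5 CPM to 219 and 216 CPM, with the sexes at its ends.

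The genes most like each member that was called in a comparison, over the 32 libraries and by Pearson r of log2 CPM among the genes tested, are listed as a description. For Acot3 they were Acot4 (0.98), the lipoprotein receptor gene Vldlr (0.95) and Nt5e (0.94), a 5′-nucleotidase gene. For Acot4 they were Acot3, Fkbp5 (0.93), a chaperone of steroid receptors, and Slc16a5 (0.93), a monocarboxylate transporter gene. Acot1 was most like Acadl (0.89), the long-chain acyl-CoA dehydrogenase, Vnn1 (0.86), the pantetheinase, and Hsdl2 (0.86). For Acot2 they were Gpat3 (0.91), of triacylglycerol synthesis, Ehhadh (0.90), of peroxisomal β-oxidation, and Crat (0.89), the carnitine acetyltransferase. Acot8 was most like Slc25a20 (0.80), the mitochondrial carnitine carrier, Eci1 (0.80) and Pex11a (0.79), a peroxisome proliferation gene. For Acot11 they included Cdcp1 (0.82) and Slc25a21 (0.73). For Acot12 they were March6 (0.88), Bnip3 (0.86) and Dlg1 (0.85), for Acot13 Ppp1ca (0.90), Copz2 (0.87) and Anxa6 (0.82), and for Acot7 Psen2 (0.87), Fxyd1 (0.85) and Il11ra1 (0.85).

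Genes of neighbouring steps were counted beside the family, from lists that were chosen with results of these data known. Of all genes, 7.19% were called higher and 9.08% lower on the WD in the mean over male genotypes. On the WD, peroxisomal β-oxidation and its transferases were called higher in males for 11 of 19 genes and lower for 0 in the mean over genotypes. Among them Acaa1b, a peroxisomal thiolase, rose by 1.45 (SE 0.17, adjusted p = 1.06e-06), Hsd17b4, the multifunctional enzyme, by 0.51 (SE 0.07, adjusted p = 3.90e-05) and Acaa1a by 0.76 (SE 0.11, adjusted p = 4.25e-05). Other PPARα targets were called higher for 11 of 16 genes and lower for 1, with Cd36, a fatty acid transporter, at 1.59 (SE 0.23), Vnn1 at 2.25 (SE 0.33) and Acadm, the medium-chain dehydrogenase, at 0.77 (SE 0.12). The acyl-CoA synthetases, which catalyse the reverse of the thioesterase step, were called higher for 6 of 13 tested genes and lower for 3, with Acsm5 at 0.58 (SE 0.10), Acsm3 at 0.46 (SE 0.09) and Slc27a2, of very long-chain acids, at 0.82 (SE 0.16). Within a genotype, the synthetase gene Acss2 was called lower on the WD by edgeR. It averaged 63.8 CPM on the WD and 368 CPM on the CD in KO males (−2.52, SE 0.48, adjusted p = 0.0424). In WT males it averaged 102 and 562 CPM (−2.44, SE 0.27, adjusted p = 0.0020). The list medians were 0.47, 0.60 and 0.08, beside 0.38 for the 10 Acot genes and 0.00 for all genes.

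Among the other thioesterases, 6 of 9 genes had enough counts, and 2 were called higher and 2 lower in males on the WD. Acot6, the last gene of the chromosome 12 cluster, rose by 0.96 (SE 0.30, adjusted p = 0.0298) at a low level of at most 3.49 CPM in all libraries, and Lypla2 (−0.37, SE 0.08, adjusted p = 0.0032), which removes acyl groups from proteins, and Ppt2 (−0.20, SE 0.07, adjusted p = 0.0440), a lysosomal thioesterase, were lower. In females on the WD the mean over genotypes called 3 of 19 peroxisomal genes, among them Acaa1b (0.82, SE 0.16) and Acox2 (0.36, SE 0.09), 0 of 16 PPARα targets and 1 of 13 synthetases, Acsm5 (0.56, SE 0.10), all higher. The list of CoA synthesis and degradation was called for 1 of 11 genes in males, Fitm2, higher by 0.62 (SE 0.14, adjusted p = 0.0035), and for 0 in females. By genotype, of all 5 lists only Nudt7 itself was called in the mean over groups (−2.16, SE 0.22, adjusted p = 1.54e-06).

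Between the sexes, Acot6 was higher in females as well, by 1.06 on the log2 scale (SE 0.20, adjusted p = 0.000135), at group means of 1.42 to 2.51 CPM in females and 0.592 to 1.63 CPM in males. Of its neighbours in the cluster, Acot2, Acot3 and Acot4 were called higher in females as well, Acot1 only in part of the settings given above, and Acot5 had too few counts to be tested. Of all genes 31.6% were called between the sexes, 15.9% higher in females, so counts of a list are read against these shares. Peroxisomal genes went both ways, 3 of 19 higher and 8 lower in females, with the transporter Abcd2 higher by 2.41 (SE 0.21) and Scp2, which holds the thiolase of bile acid synthesis, and Acox2, the branched-chain oxidase, lower (−1.07, SE 0.07, and −0.49, SE 0.06). PPARα targets were called higher for 5 of 16 and lower for 1, with Cd36 at 0.73 (SE 0.16), Vnn1 at 0.89 (SE 0.22) and Cyp4a14, a fatty acid ω-hydroxylase, at 1.82 (SE 0.49). Of 13 synthetases 5 were higher and 2 lower, with Acss3 (1.11, SE 0.13) and Slc27a1 (0.97, SE 0.13) higher and Acsm5 lower (−0.34, SE 0.07). Of the CoA genes 2 of 11 were lower in females, Nudt7 (−1.69, SE 0.21) and Ppcs (−0.16, SE 0.06), and of the other thioesterases Them4 was lower (−0.40, SE 0.08). The list medians were −0.12, −0.05 and −0.03, beside 0.22 for the Acot genes.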

How the data were processed

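Liver mRNA of 32 mice was sequenced as 50-base read pairs. The authors quantified transcripts with Salmon 1.3.0 and deposited, for each library, estimated counts and TPM per Ensembl transcript, with effective lengths (builds GRCm38 and mm10 in the submitters' processing notes). The deposited TPM values are scaled by Salmon to transcript length and library and were summed per gene. Estimated counts were summed per gene over the 117135 transcripts, of which 115973 were found in GENCODE vM21, and rounded to whole numbers. Counts outside this annotation made up 0.315 to 0.424% of a library. CPM were computed with TMM factors.

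Genes reaching 10 counts in 4 or more libraries were tested with edgeR 4.0.16 (R 4.3.3), quasi-likelihood test, Benjamini-Hochberg adjustment over all genes and a threshold of 0.05. There were 12 comparisons of 2 groups and 6 contrasts of a model of all 32 libraries. Alternatives were DESeq2 1.42.0 and edgeR with length offsets, RLE size factors, no filter, a replicate block, removal of the length trend, protein-coding transcripts, summed TPM, Acot1 and Acot2 added, and leaving out libraries. The tests were tried on simulated data first. The members and lists were chosen with earlier results of these data known. Named genes are all members, up to 3 called genes of each context list with the smallest p, the 3 genes most like each called member and Nudt7. A gene that this rule names is not reported here. Sequences come from GRCm38 transcripts and RefSeq promoters, and Acot13 had no promoter entry. Replicates were not duplicates of each other: over the 48 pairs within groups, the chi-square divided by the number of genes was 11.1 to 115. Depth limits Acot3 in males most, where counts ran from 2 to 306 per library.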

Additional observations from a re-analysis of the deposited data

Results flagged for a closer look

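A single liver stood apart from the other 3 of its group in 7 of 80 combinations of gene and group. The cut-off is passed by about 1 in 20 groups of independent, normal values. Members vary together between livers, so 7 of 80 cannot be read against that rate. Among the KO males on the WD, replicate 4 had 39.5 CPM of Acot1, against 14.8 to 18.3 CPM in the others, and 25.7 CPM of Acot3, against 1.28 to 4.07 CPM. The same liver had the highest summed adipocyte markers of its group, 104 CPM, and their part was not tested. In this group Cfd reached 95.7 CPM and Fabp4 8.47 to 19.5 CPM. Adipoq was at most 0.155 CPM and Plin1 at most 0.168 CPM, and Lep and Retn were at 0 in all 4 livers. Among the KO females on the CD, replicate 1 had 127 CPM of Acot3, against 62.3 to 67.5 CPM, and 223 CPM of Acot4, against 128 to 130.2 CPM. Replicate 4 of the WT females on the WD had 114 CPM of Acot4, against 198 to 213 CPM, and is a library with acinar transcripts (351 CPM). Replicate 1 of the WT males on the WD had 36.1 CPM of Acot4, against 67.5 to 73.3 CPM. Replicate 3 of the KO females on the WD had 134 CPM of Acot12, against 137.7 to 138 CPM, a gap that is small in size.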

How the results depend on the processing

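Of 4546 values of the 10 genes under the alternatives, 4369 kept their side of the threshold or, for TPM, lay within the standard error. Values called in neither fit counted as kept even where their sign changed. Another 116 lost and 32 gained a call, and 29 moved by more than the standard error in TPM. A change of sign in a value with a call occurred in 0. For the diet in WT males, where 1 member was called, 0 were with length offsets, the length trend removed, protein-coding transcripts or the model of all 32 libraries, 2 were with DESeq2 and 0 to 3 without single replicates. In KO males, where 2 members were called, 1 was with RLE size factors or the length trend removed, 0 without a filter on low counts and 0 to 1 without single replicates. The mean diet effect in males called 6 members, 3 without a filter, and 3 to 6 without single replicates. In WT females, where 0 members were called, 2 were without the libraries with acinar transcripts. Between the sexes in WT livers on the WD, 3 members were called, 5 without those libraries and 2 to 5 without single replicates. In KO livers on the WD, 1 member was called, 0 with length offsets or the length trend removed, 3 with DESeq2, 2 in the model of all 32 libraries and 0 to 2 without single replicates. Lypla1, a protein deacylase, was at 0.38 in WT males on the WD and reversed to −0.0709 with edgeR length offsets and −0.0771 with DESeq2. The diet in WT males called 1679 of all genes, 481 with edgeR length offsets and 1031 with DESeq2, and in KO males 323, 808 with DESeq2 and 747 in the model of all 32 libraries. Fold changes followed transcript length in WT males by diet (Spearman 0.345 across genes, which are not independent). The same held for the mean diet effect in males (0.3115), for KO males by diet (0.240) and for genotype in males on the CD (0.336). Other comparisons ran the other way, down to −0.263 for the diet effect in females minus males. The cause of these shifts was not tested.

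Between groups, the mean correlation of deviations was 0.0268 for samples of the same replicate number and −0.00816 for others. These means are small but come without a test, so they cannot exclude that the numbers pair some samples. With a replicate block, 0 members were called by diet in WT males (672 of all genes), 0 by sex in WT livers on the WD, where Acot3 was at 4.79 (adjusted p = 0.0615) and Acot4 at 1.59 (adjusted p = 0.0612), and 0 by sex in KO livers on the WD.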
